A study of Oryza sativa with 8 samples.

Results

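The genes described here are 9 members of the rice heat shock response: the heat shock factors HsfA1, HsfA2a, HsfA2c, HsfA2d, HsfA3, HsfA4d, HsfB2b and HsfB2c, and the chaperone HSP101. Their loci are LOC_Os03g63750 for HsfA1, LOC_Os03g53340 for HsfA2a, LOC_Os10g28340 for HsfA2c, LOC_Os03g06630 for HsfA2d, LOC_Os02g32590 for HsfA3, LOC_Os05g45410 for HsfA4d, LOC_Os08g43334 for HsfB2b, LOC_Os09g35790 for HsfB2c and LOC_Os05g44340 for HSP101; the digits after Os give the rice chromosome. The rule names them by locus ID and uses no measured value, though the set was proposed with earlier results of these data known, and all 9 were found among the 42189 gene IDs of the deposited comparison tables. RNA was sequenced from roots of 2 indica rice lines, each kept at 10 °C or at 28 °C. The lines are labelled cold-tolerant and cold-sensitive, and both carry IRGA breeding codes. Plants of both lines were germinated for 5 days in water, grown in nutrient solution at 28 °C, and moved to the test temperature at about 30 days. The groups were tolerant roots at 10 °C, tolerant roots at 28 °C, sensitive roots at 10 °C and sensitive roots at 28 °C, with 2 libraries each and 4 plants pooled per library. For the time in the cold, 1 protocol in the labels gives 24 h, while another, with the labels of the cold samples, gives up to 10 days. The labels call the libraries of a group biological replicates without saying how they were kept apart, so the p-values measure the spread between these libraries, which may be in part technical.

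Heat shock factors (Hsfs) are transcription factors that bind heat shock elements in the promoters of chaperone genes. Class A factors carry an activation domain and switch such genes on, while class B factors lack it and often act as repressors. HSP101, a ClpB-type chaperone of the HSP100 family, pulls proteins out of aggregates together with HSP70 and small heat shock proteins, and plants that lack it lose acquired tolerance to heat. In plants several Hsf genes also respond to cold, drought, salt and oxidative stress, so the family is of interest beyond heat. The comparisons ask how these genes moved with cold in each line, and whether the lines differed.

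Whole reads per library were recovered from the deposited tables for 34856 of 35835 IDs with a mean above 0, all 9 genes included. The recovered reads summed to between 10347775 and 13719697 per library. These sums leave out 979 IDs that were not recovered, 932 of them with a mean of at least 1000, so they fall short of the full depth. Size factors, by which the authors divided the reads, ranged over 0.679 to 0.991 in cold libraries and over 1.10 to 1.25 in those kept at 28 °C. They were not in proportion to the recovered sums. The sensitive 10 °C library with a factor of 0.679 held 10347775 recovered reads. The sensitive 28 °C library with a factor of 1.24 held 13719697. The libraries of a group are called deeper and shallower by their size factor, because no replicate number could be tied to them. Values are normalised read counts, reads divided by the size factor, and they are compared within a gene only, since no gene length was used. Between the libraries of a group, the median fold over genes with a mean of at least 20 was 1.30 for tolerant roots at 10 °C, 1.18 for tolerant roots at 28 °C, 1.40 for sensitive roots at 10 °C and 1.12 for sensitive roots at 28 °C. In these whole roots, fewer cells of a type and less RNA per cell cannot be told apart. All 5 loci of a root marker list were detected in every group. Their summed level was 6013 in tolerant roots at 10 °C, against 65040 at 28 °C. In sensitive roots it was 8322 at 10 °C, against 47164 at 28 °C. By the authors' deposited table, all 5 fell at an adjusted p below 0.05 in tolerant roots and 2 of 5 in sensitive roots. Of all genes tested, 19.7% fell at this threshold in tolerant and 21.8% in sensitive roots. The median log2 change of the 5 loci was −3.22 in tolerant and −2.73 in sensitive roots. The difference in cold response between the lines passed a derived Wald test for 0 of the 5. The counts thus do not show that the lines differ in these loci. A list of 8 photosynthesis loci that mark shoot tissue was also detected in full, and none of the markers stood at 0. Their summed level by library was 2053 and 1893 in tolerant roots at 10 °C, 5295 and 5567 in tolerant roots at 28 °C, 5384 and 4848 in cold sensitive roots, and 7355 and 3079 in those at 28 °C. Thus root marker transcripts moved with temperature, and shoot marker transcripts were lowest in the cold tolerant roots; their part in the results below was not tested.

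In the cold, HsfA1, HsfA3, HsfA4d and HSP101 rose in both lines, HsfB2c fell in both, and HsfA2c fell in sensitive roots. By the authors' deposited table, with a call at an adjusted p below 0.05, 5 of the 9 genes changed in tolerant roots, 4 upward and 1 downward. The same test called 40.0% of all 26199 genes tested in that comparison, 20.3% upward and 19.7% downward. Of the 9, 6 changed in sensitive roots per the authors' deposited table, 4 upward and 2 downward, against 44.5% of all genes tested, 22.8% upward and 21.8% downward. Both shares of called genes among the 9 stand on few genes and lie not far above these backgrounds. The median log2 change of the 8 genes with a mean of at least 20 was 0.77 in tolerant and 0.77 in sensitive roots, beside 0.01 and −0.01 over all genes tested with such a mean. For 7 of these 8 genes the libraries at 10 °C and 28 °C did not overlap, in either line. The same held for 76.9% of all recovered genes with such a mean in tolerant roots and for 79.5% in sensitive roots. Limma, run on the recovered reads of 8 of the 9 genes, also called 5 in tolerant and 6 in sensitive roots, beside 41.4% and 46.1% of the 22639 genes it tested. Leaving out a library in limma lowered the count in tolerant roots to 3 without the shallower 10 °C library, the deeper 28 °C library or the shallower 28 °C library of that line. In sensitive roots the count was 1 without the deeper 28 °C library and 3 without the shallower 28 °C library of that line.

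**Figure D1:**
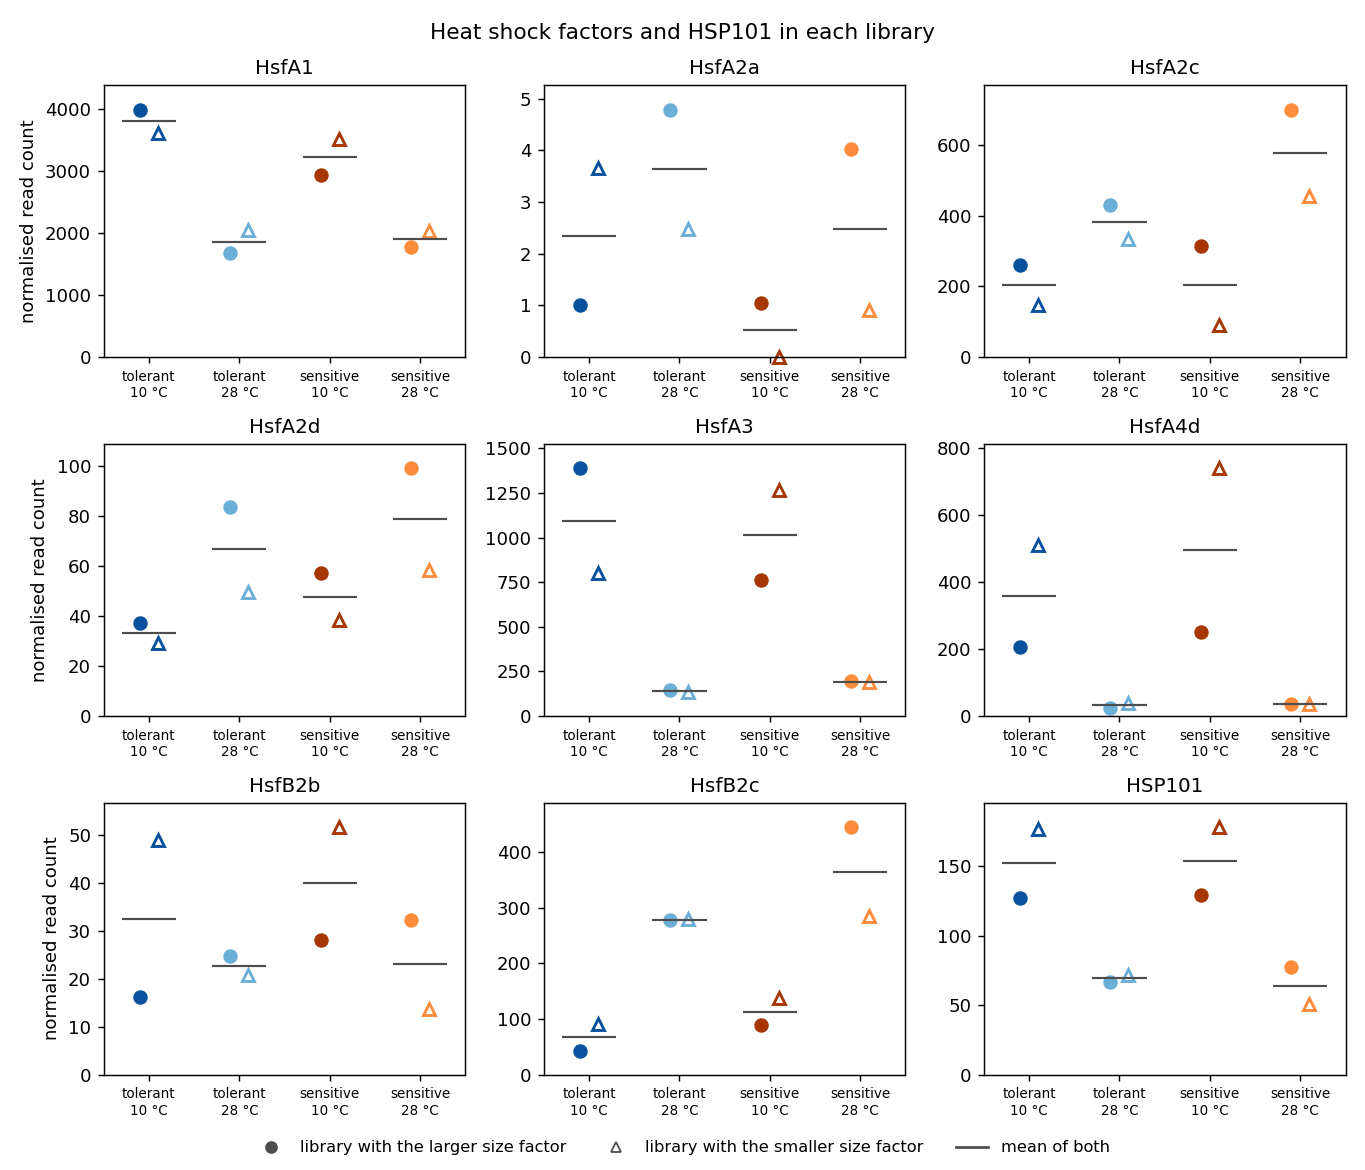
Normalised read count of each gene in the 8 libraries, on a linear axis from 0 that differs between panels; filled circles are the library with the larger size factor of each group, open triangles the one with the smaller, and bars the mean of both. HsfA3 and HsfA4d stand far higher at 10 °C in both lines, HsfB2c lower, and HsfA2a lies between 0 and 4.79 in all libraries.

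HsfA3 and HsfA4d made the largest rises of the 9 genes in both lines. HsfA3 is a class A factor that in Arabidopsis is switched on by the drought and heat regulator DREB2A. It stood at 1387 normalised counts in the deeper and 799 in the shallower library of tolerant roots at 10 °C, against 144 and 136 at 28 °C. In sensitive roots it stood at 762 and 1265 at 10 °C, against 194 and 188 at 28 °C. Every library at 10 °C lay above every library at 28 °C, while the libraries at 28 °C of a line lay close together and those at 10 °C differed by 1.74-fold in tolerant and 1.66-fold in sensitive roots. By the authors' deposited table the log2 change of HsfA3 was 2.96 ± 0.38 (SE, adjusted p = 4.85e-13) in tolerant roots, a 7.80-fold rise. The authors' deposited table gave 2.41 ± 0.38 (SE, adjusted p = 4.42e-09) for sensitive roots, a 5.31-fold rise. These changes stood at the percentiles 95.1 and 89.9 of all genes tested in the tolerant and the sensitive line. In limma its call held without each of the 8 libraries in turn, with log2 changes of 2.51 to 3.30 in tolerant and 2.00 to 2.73 in sensitive roots.

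HsfA4d belongs to a class A group whose members are linked with responses to reactive oxygen in plants, and mutation of this rice gene (Spl7) gives spotted, lesioned leaves. It was sparse at 28 °C, with 24.7 and 39.8 normalised counts in tolerant and 35.5 and 35.5 in sensitive roots. At 10 °C it stood at 205 in the deeper and 511 in the shallower library of tolerant roots, and at 250 and 739 in those of sensitive roots. All libraries at 10 °C lay above all at 28 °C, and in both lines the shallower cold library was the higher, by 2.49-fold in tolerant and 2.95-fold in sensitive roots. By the authors' deposited table the log2 change was 3.47 ± 0.63 (SE, adjusted p = 4.96e-07) in tolerant roots. For sensitive roots the authors' deposited table gave 3.80 ± 0.63 (SE, adjusted p = 2.23e-08). The folds were 11.1 and 13.9, the highest of the 9 genes. The size of the rise rested on which cold library was used: in limma the log2 change in tolerant roots was 4.01 without the deeper and 2.70 without the shallower 10 °C library, and in sensitive roots 4.36 without the deeper and 2.80 without the shallower one. In tolerant roots the limma call ended without the shallower 10 °C library (adjusted p = 0.0557), without the deeper 28 °C library (log2 change 2.97, adjusted p = 0.104) and without the shallower 28 °C library (3.65, adjusted p = 0.0809). In sensitive roots it ended without the deeper 28 °C library (log2 change 3.50, limma adjusted p = 0.0747) and without the shallower 28 °C library (3.50, limma adjusted p = 0.0680).

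HsfA1, of the class A group that in tomato and Arabidopsis starts the heat response, had the smallest maximum fold between libraries of a group among the rising genes. Tolerant roots held 3984 and 3604 normalised counts at 10 °C, against 1675 and 2045 at 28 °C. Sensitive roots held 2926 and 3508 at 10 °C, against 1765 and 2035 at 28 °C. The cold libraries lay above the warm ones in both lines, and libraries of 1 group differed by at most 1.22-fold. Its log2 change in the authors' deposited table was 1.03 ± 0.23 (SE, adjusted p = 4.78e-05) in tolerant roots, a 2.04-fold rise. In sensitive roots it was 0.76 ± 0.23 (SE, adjusted p = 0.00316) in the authors' deposited table, a 1.69-fold rise. The limma call in tolerant roots held without each of the 8 libraries. That in sensitive roots ended without the deeper 28 °C library of that line (log2 change 0.65, limma adjusted p = 0.0794).

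Of the A2 factors, 0 of 3 were called higher in the cold in either line, and HsfA2c fell in sensitive roots. In Arabidopsis HsfA2 is among the most strongly heat-induced factors and sustains acquired tolerance to heat, and rice carries several copies. HsfA2c stood at 260 and 148 normalised counts in tolerant roots at 10 °C, against 432 and 334 at 28 °C. In sensitive roots it stood at 316 and 89.8 at 10 °C, against 701 and 455 at 28 °C. Every cold library lay below every warm library of its line, and the cold libraries of sensitive roots differed by 3.52-fold, the deeper being the higher. The authors' deposited table put the log2 change at −1.50 ± 0.58 (SE, adjusted p = 0.0251) in sensitive roots, where HsfA2c fell, and −0.91 ± 0.58 (SE, adjusted p = 0.212) in tolerant roots, where it was not called. The difference between these changes, tolerant minus sensitive, was 0.60 ± 0.83 (SE, derived Wald test, adjusted p = 0.977), so the lines were not shown to differ. In limma the log2 change in sensitive roots was −2.65 without the deeper 10 °C library, where the call held, and −0.85 without the shallower one (adjusted p = 0.144). That call also ended without the deeper 28 °C library of sensitive roots (log2 change −1.34, limma adjusted p = 0.154), without the shallower one (−1.96, 0.0535), and without the deeper or the shallower 28 °C library of tolerant roots (−1.65 and −1.65, adjusted p = 0.0564 and 0.0565). The RefSeq entry that carries the name HSFA2C also carries the name ARD1, and it is classed there as a transcribed pseudogene; whether reads of this locus are shared with another transcript was not tested. The next locus in ID order, LOC_Os10g28350, was called lower in both lines by the authors' deposited table, at −2.33 ± 0.41 (log2, SE) in tolerant and −1.02 ± 0.39 in sensitive roots. Its fall was not particular to it. LOC_Os10g28320, LOC_Os10g28330 and LOC_Os10g28360, within 2 places of HsfA2c in ID order, were called lower in both lines too. Their log2 changes were −1.70, −3.82 and −1.80 in tolerant and −1.21, −2.80 and −2.12 in sensitive roots.

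HsfA2d had 37.3 and 29.3 normalised counts in tolerant roots at 10 °C, against 83.8 and 49.8 at 28 °C. In sensitive roots it had 57.4 and 38.3 at 10 °C, against 99.2 and 58.3 at 28 °C. The libraries of the temperatures did not overlap within a line, with the cold ones lower, yet neither change passed the test. The log2 change was −0.999 ± 0.54 (SE, adjusted p = 0.131) in tolerant and −0.71 ± 0.53 (SE, adjusted p = 0.280) in sensitive roots per the authors' deposited table. The 95% intervals ran from −2.06 to 0.06 and from −1.76 to 0.33. The RefSeq entry of this gene also carries the name ARD2. The preceding locus in ID order, LOC_Os03g06620, was called lower in the cold in both lines in the authors' deposited table. So were the following loci, LOC_Os03g06654 and LOC_Os03g06670, while LOC_Os03g06610, with a mean of 3.38, was not called. Whether HsfA2d shares reads with any of these loci was not tested.

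HsfA2a was barely detected. Tolerant roots held 1 and 3 reads at 10 °C, against 6 and 3 reads at 28 °C. Sensitive roots held 1 and 0 reads at 10 °C, against 5 and 1 reads at 28 °C. With so few reads a fall or a small change could not be detected at this depth. Its adjusted p in the authors' deposited table was 0.805 in tolerant and 0.473 in sensitive roots.

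Of the class B genes, HsfB2c fell in both lines and HsfB2b passed the test in neither. HsfB2c stood at 43.4 and 90.4 normalised counts in tolerant roots at 10 °C, against 277 and 280 at 28 °C. In sensitive roots it stood at 89.7 and 137 at 10 °C, against 444 and 285 at 28 °C. Every cold library lay below every warm one in each line, as for HsfA2c and HsfA2d. HsfB2c was the sole gene of the 9 to be called lower in both lines. Its log2 change in tolerant roots was −2.07 ± 0.46 (SE, adjusted p = 4.69e-05) in the authors' deposited table, 4.19-fold lower. That in sensitive roots was −1.69 ± 0.45 (SE, adjusted p = 0.000744) in the authors' deposited table, 3.23-fold lower. In limma the fall in tolerant roots held without each library (log2 change −2.67 to −1.62). The call in sensitive roots ended without the deeper 10 °C library (−1.38, limma adjusted p = 0.0539) and without the deeper 28 °C library of that line (−1.39, limma adjusted p = 0.0629).

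HsfB2b, whose overproduction in rice has been reported to lower tolerance to drought and salt, was sparse and varied between libraries. It stood at 16.2 and 48.9 normalised counts in tolerant roots at 10 °C, against 24.7 and 20.7 at 28 °C. In sensitive roots it stood at 28.2 and 51.5 at 10 °C, against 32.3 and 13.7 at 28 °C. Temperatures overlapped in both lines, and libraries of 1 group differed by up to 3.03-fold. The log2 change in the authors' deposited table was 0.51 ± 0.78 (SE, adjusted p = 0.638) in tolerant and 0.78 ± 0.78 (SE, adjusted p = 0.429) in sensitive roots, with 95% intervals from −1.02 to 2.03 and from −0.74 to 2.31. Without the shallower 10 °C library of tolerant roots the limma log2 change was −0.47.

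HSP101 held 127 and 177 normalised counts in tolerant roots at 10 °C, against 67.0 and 72.1 at 28 °C. Sensitive roots held 129 and 178 at 10 °C, against 77.4 and 51.0 at 28 °C. The cold libraries lay above the warm ones in each line, and the levels of both lines at 10 °C were nearly equal. In the authors' deposited table the log2 change was 1.13 ± 0.40 (SE, adjusted p = 0.0151) in tolerant roots, a 2.18-fold rise. The authors' deposited table gave 1.25 ± 0.40 (SE, adjusted p = 0.00603) in sensitive roots, a 2.38-fold rise. At 28 °C these levels rest on 84 and 87 reads in tolerant and 96 and 56 reads in sensitive roots. Of the rising genes HSP101 lost its limma call without the most libraries. With all libraries its limma log2 change was 1.09 (adjusted p = 0.0370) in tolerant and 1.23 (adjusted p = 0.0255) in sensitive roots. Both p-values stood near the threshold, and some calls ended at a log2 change no smaller than these. In limma the call in tolerant roots ended without the shallower 10 °C library (log2 change 0.87, adjusted p = 0.155), the deeper 28 °C library (1.04, 0.142), the shallower 28 °C library (1.15, 0.116), and the deeper or shallower 28 °C library of sensitive roots (1.09 and 1.09, adjusted p = 0.0575 and 0.0577). The call in sensitive roots ended in limma without the shallower 10 °C library (1.03, adjusted p = 0.0846), the deeper 28 °C library (1.54, 0.0652) and the shallower 28 °C library of that line (0.95, 0.153).

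**Figure D2:**
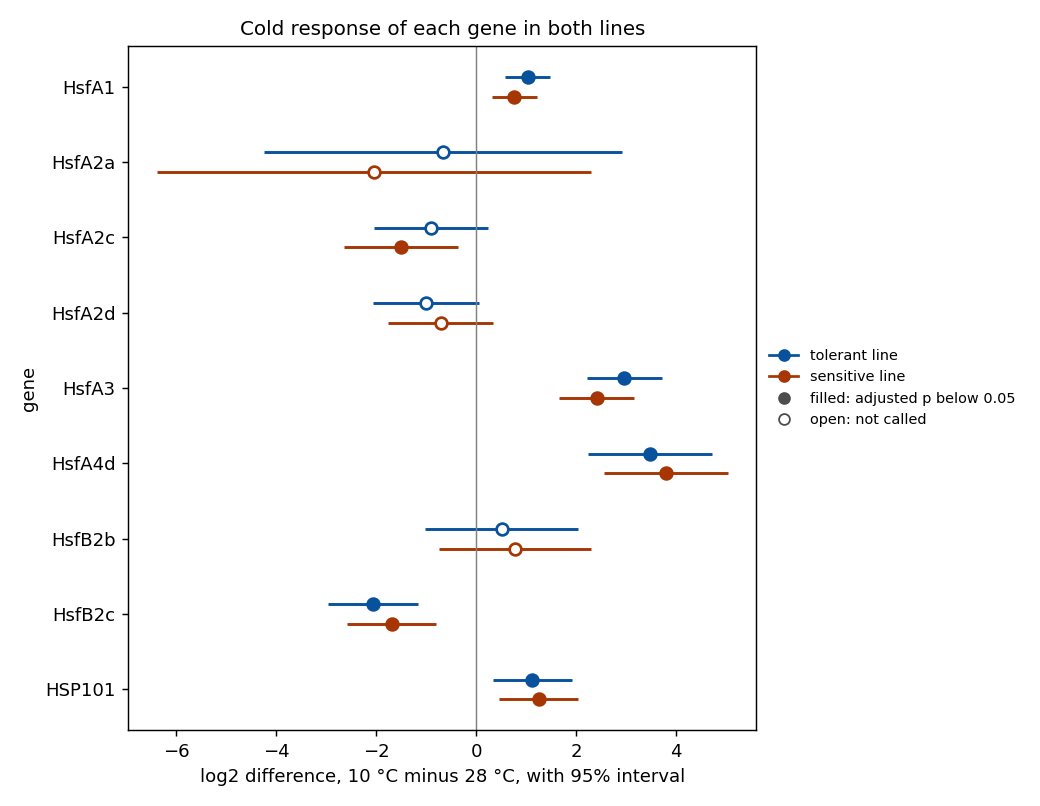
Log2 difference, 10 °C minus 28 °C, of each gene in tolerant and sensitive roots, from the authors' deposited tables; lines are 95% intervals and filled points have an adjusted p below 0.05. HsfA3 and HsfA4d lie between 2.41 and 3.80, and HsfB2c at −2.07 and −1.69.

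**Figure D3:**
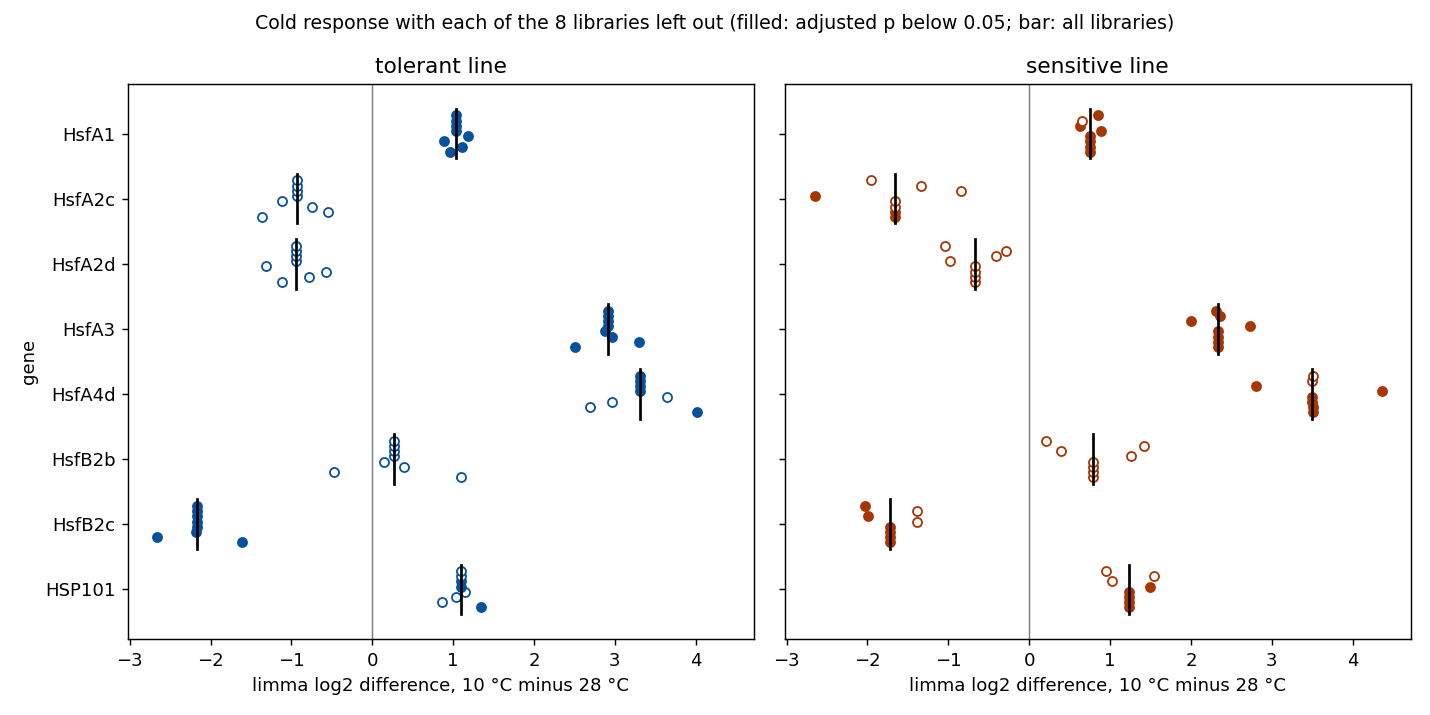
Limma log2 difference, 10 °C minus 28 °C, with each of the 8 libraries left out in turn, for the 8 genes with a mean of at least 20; bars give the value with all libraries and filled points have an adjusted p below 0.05. All points of HsfA3 are filled, while HsfA4d and HSP101 in both lines, and HsfA1, HsfA2c and HsfB2c in sensitive roots, mix filled and open points.

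The lines were not shown to differ at either temperature in any gene of the set that could be tested. At 10 °C the authors' deposited table called 0 of the 8 genes with a test, against 2.90% of 23446 genes tested. At 28 °C, 0 of 9 passed in the authors' deposited table, against 0.765% of 27576 genes. In both comparisons 0 genes of the set had an unadjusted p below 0.05, and limma called 0 of 8, beside 0.367% of its genes at 10 °C and 0.327% at 28 °C. A count of 0 among so few genes lies near these backgrounds. The libraries of the lines did not overlap for 2 of 8 genes at 10 °C and for 3 of 8 at 28 °C, against 36.9% and 40.2% of all recovered genes with a mean of at least 20.

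The intervals say how large a line difference these data leave room for. HsfA1 was the most narrowly bounded, with a log2 difference, tolerant minus sensitive, of 0.24 ± 0.23 (SE) at 10 °C in the authors' deposited table and a 95% interval from −0.21 to 0.69. At 28 °C it was −0.03 ± 0.23 (SE) in the authors' deposited table, with an interval from −0.48 to 0.42. HSP101 differed by −0.01 ± 0.40 (SE) at 10 °C in the authors' deposited table, with an interval from −0.79 to 0.76. HsfB2c had the largest difference in size among the 8 genes tested at 10 °C, −0.76 ± 0.47 (SE, adjusted p = 0.523) in the authors' deposited table, with an interval from −1.68 to 0.15. Its libraries at 10 °C overlapped between the lines, at 43.4 and 90.4 normalised counts in tolerant and 89.7 and 137 in sensitive roots. For HsfA4d the interval at 10 °C ran from −1.67 to 0.74, which is wider than that of HsfA1. HsfA2a had no adjusted p at 10 °C; its 4 reads in tolerant against 1 read in sensitive roots gave a ratio of 3.62 with a 95% counting interval from 0.358 to 178.

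The cold responses of the lines were not shown to differ either. A Wald test derived from both cold tables passed for 0 of the 9 genes, with 0 at an unadjusted p below 0.05, against 0.622% of 26199 genes; limma called 0 of 8, and 0 of all its genes. The response of HsfA3, tolerant minus sensitive, differed by 0.55 ± 0.54 on the log2 scale (SE, derived Wald test, adjusted p = 0.942), with a 95% interval from −0.51 to 1.62. That of HSP101 differed by −0.13 ± 0.57 (SE, derived Wald test, adjusted p = 0.995), with an interval from −1.24 to 0.99. The interval of HsfA1 ran from −0.36 to 0.90 and that of HsfA4d from −2.08 to 1.42. The order of group levels followed temperature: by mean, both cold groups stood above both warm groups for HsfA1, HsfA3, HsfA4d, HSP101 and HsfB2b, and below them for HsfA2c, HsfA2d and HsfB2c, with neighbours in the order that share a temperature not shown to differ. HsfB2b and HsfA2d, which passed the test in neither line, show this order too, so it does not separate called from uncalled genes. The barely detected HsfA2a also shows it, at mean counts of 2.34 (tolerant) and 0.52 (sensitive) at 10 °C, against 3.64 and 2.47 at 28 °C. The share of all genes with this order was not counted. Within a line, libraries of the temperatures did not overlap for 76.9% (tolerant) and 79.5% (sensitive) of recovered genes with a mean of at least 20.

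**Figure D4:**
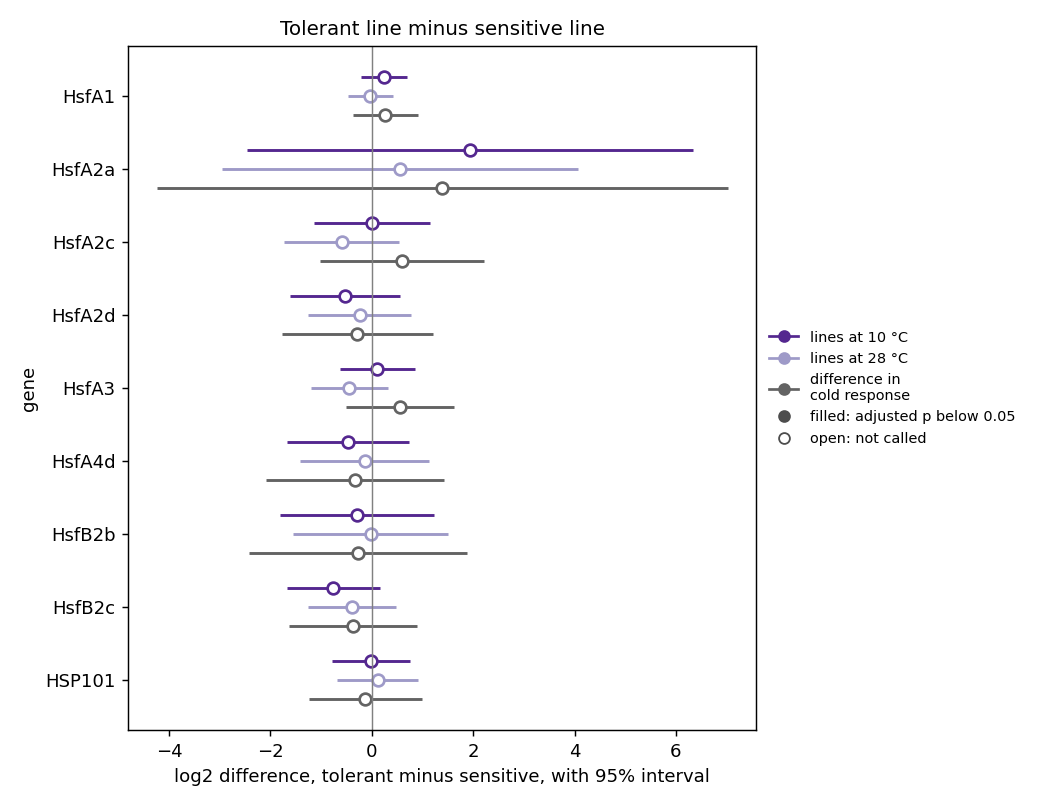
Log2 difference, tolerant minus sensitive, of each gene at 10 °C, at 28 °C and in the cold response (the response of tolerant minus that of sensitive roots), with 95% intervals; open points did not pass an adjusted p of 0.05. Every point is open and every interval includes 0; the widest are those of HsfA2a, which held 0 to 6 reads per library.

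The other genes of the pathway were taken from lists of rice loci written from general knowledge, and no source used here annotates their IDs. Of 17 other Hsf loci, all in the tables, 15 were tested, and in each line 8 rose and 0 fell in the authors' deposited table, 7 of them in both lines, while 20.3% of all genes tested were called upward in tolerant and 22.8% in sensitive roots. Their median log2 change over the 14 loci with a mean of at least 20 was 0.84 in tolerant and 1.05 in sensitive roots, beside 0.01 and −0.01 over all genes with such a mean. The largest rise in both lines was that of LOC_Os02g13800, at 280 and 407 normalised counts in tolerant roots at 10 °C, against 7.98 and 11.6 at 28 °C. In sensitive roots it stood at 399 and 867 at 10 °C, against 8.87 and 2.73 at 28 °C. Its log2 change in the authors' deposited table was 5.13 ± 0.59 (SE, adjusted p = 1.58e-16) in tolerant and 6.74 ± 0.64 (SE, adjusted p = 5.15e-24) in sensitive roots. Thus several Hsf loci beyond the 9 also stood higher in the cold, and none passed the test downward. In limma the count of 8 in tolerant roots was 4 without the shallower 10 °C library or without either 28 °C library of that line, and the count of 8 in sensitive roots was 5 without the deeper 28 °C library of that line.

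The counts of the chaperone lists stand beside 40.0% of all genes called in tolerant and 44.5% in sensitive roots, about equally upward and downward, and the lists are short. Of 5 other Clp and HSP100 loci, relatives of HSP101, 3 rose and 0 fell in each line in the authors' deposited table, though in limma 1 was called in tolerant roots without their deeper 28 °C library, and 1 in sensitive roots without their shallower 10 °C or either of their 28 °C libraries. LOC_Os02g32520 rose the most, to a level of 2607 in tolerant roots at 10 °C against 445 at 28 °C. In sensitive roots it rose to 3075 at 10 °C against 519 at 28 °C. LOC_Os03g31300 and LOC_Os02g08490 were called in neither line. Their log2 changes in the authors' deposited table were 0.01 and 1.11 in tolerant and −0.13 and 1.01 in sensitive roots. Which of the 5 loci are closest to HSP101 was not tested, so the calls do not show that its nearest relatives rose. HSP90 chaperones mature signalling proteins, and some hold Hsfs inactive. Which of the listed loci do so was not tested. Of 8 HSP90 loci tested, 0 rose, 4 fell in tolerant and 3 fell in sensitive roots per the authors' deposited table. This share of calls was near that of all genes. LOC_Os09g30412 and LOC_Os09g30418, with the highest means of the list, were not called in either line. Their log2 changes there were −0.25 and −0.28 in tolerant and −0.13 and −0.30 in sensitive roots. LOC_Os06g50300 fell the most, to 4469 in tolerant roots at 10 °C against 13529 at 28 °C, and the authors' deposited table gave this fall as −1.60 ± 0.16 on the log2 scale (SE) and as −1.73 ± 0.16 in sensitive roots. Some HSP70 chaperones act with HSP101 in refolding. Which of the listed HSP70 loci do so was not tested. In the HSP70 list, 6 of 13 loci tested were called in each line, near the share of all genes. Of these, 2 rose and 4 fell in tolerant roots, and 3 rose and 3 fell in sensitive roots per the authors' deposited table. LOC_Os02g02410 fell to 620 in tolerant roots at 10 °C against 9180 at 28 °C, and to 673 in sensitive roots at 10 °C against 9170 at 28 °C. LOC_Os12g14070 rose the most in tolerant roots, by 1.61 ± 0.36 on the log2 scale (SE, adjusted p = 5.31e-05) in the authors' deposited table. LOC_Os03g16860 rose the most in sensitive roots, to a level of 18179 at 10 °C against 4113 at 28 °C, by 2.14 ± 0.49 (log2, SE, adjusted p = 6.20e-05) in the authors' deposited table. In tolerant roots LOC_Os03g16860 stood at 3712 at 10 °C against 4317 at 28 °C and was not called (−0.22 ± 0.49, SE, adjusted p = 0.757, in the authors' deposited table), and the difference in cold response, tolerant minus sensitive, did not pass (−2.36 ± 0.69, SE, derived Wald test, adjusted p = 0.0758). These folds of chaperone loci come without values per library where a gene's mean was too high for its reads to be recovered, as for LOC_Os06g50300, LOC_Os02g02410 and LOC_Os03g16860.

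Small heat shock proteins, which hold unfolding proteins until HSP101 and HSP70 act, were mostly sparse. Of 19 loci, 14 were tested in the cold comparisons, and in each line 2 rose and 3 fell in the authors' deposited table, no larger a share than the 40.0% and 44.5% called over all genes. Over the 7 loci with a mean of at least 20, the median log2 change was −0.59 in tolerant and −0.13 in sensitive roots; over all 14 it was 0.47 and 0.69, so its sign depended on sparse loci. LOC_Os04g36750 fell in both lines, to 8.08 and 3.67 normalised counts in tolerant roots at 10 °C against 96.6 and 83.8 at 28 °C, and to 6.26 and 2.95 in sensitive roots at 10 °C against 90.3 and 67.5 at 28 °C. LOC_Os02g52150 rose, with a log2 change of 2.63 ± 0.77 (SE, adjusted p = 0.00251) in tolerant and 3.53 ± 0.77 (SE, adjusted p = 2.51e-05) in sensitive roots per the authors' deposited table. Its cold libraries lay far apart, at 512 and 1753 normalised counts in tolerant and 852 and 4765 in sensitive roots, with the shallower library higher in both lines, as for HsfA4d. In limma the change of LOC_Os02g52150 in tolerant roots was 2.35 and was not called (adjusted p = 0.119).

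Among 7 loci of Hsf partners and heat memory, 1 rose in each line, and 5 fell in tolerant and 4 in sensitive roots per the authors' deposited table, while 19.7% of all genes tested were called downward in tolerant and 21.8% in sensitive roots. All 7 were recovered, and limma called 3 of them in tolerant roots, 0 upward, and 5 in sensitive roots. LOC_Os06g39240 rose, at 19.2 and 78.2 normalised counts in tolerant roots at 10 °C against 2.39 and 0.829 at 28 °C, and at 81.3 and 303 in sensitive roots at 10 °C against 4.03 and 0 at 28 °C. LOC_Os04g28420 fell, at 10.1 and 1.22 in tolerant roots at 10 °C against 43.9 and 46.4 at 28 °C, and at 6.26 and 1.47 in sensitive roots at 10 °C against 351 and 66.5 at 28 °C. Neither change was called by limma in tolerant roots (adjusted p = 0.0722 and 0.135). Galactinol synthase, the entry enzyme of raffinose synthesis and a known target of HsfA2 and HsfA3 in Arabidopsis, had 2 loci tested. LOC_Os07g48830 rose in both lines in the authors' deposited table, at 88.8 and 407 normalised counts in tolerant roots at 10 °C against 0.798 and 2.49 at 28 °C, and at 78.2 and 507 in sensitive roots at 10 °C against 1.61 and 0 at 28 °C. In sensitive roots that was 419 reads at 10 °C against 2 reads at 28 °C, a ratio of 299 with a 95% counting interval from 82.2 to 2477. Its limma adjusted p with all libraries was 0.0501 in tolerant and 0.0504 in sensitive roots. The other locus, LOC_Os03g20120, rose in tolerant roots alone (log2 change 1.03 ± 0.30, SE, against 0.26 ± 0.30 in sensitive roots per the authors' deposited table), and the difference between the lines was not called (0.77 ± 0.42, SE, derived Wald test, adjusted p = 0.670).

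**Figure D5:**
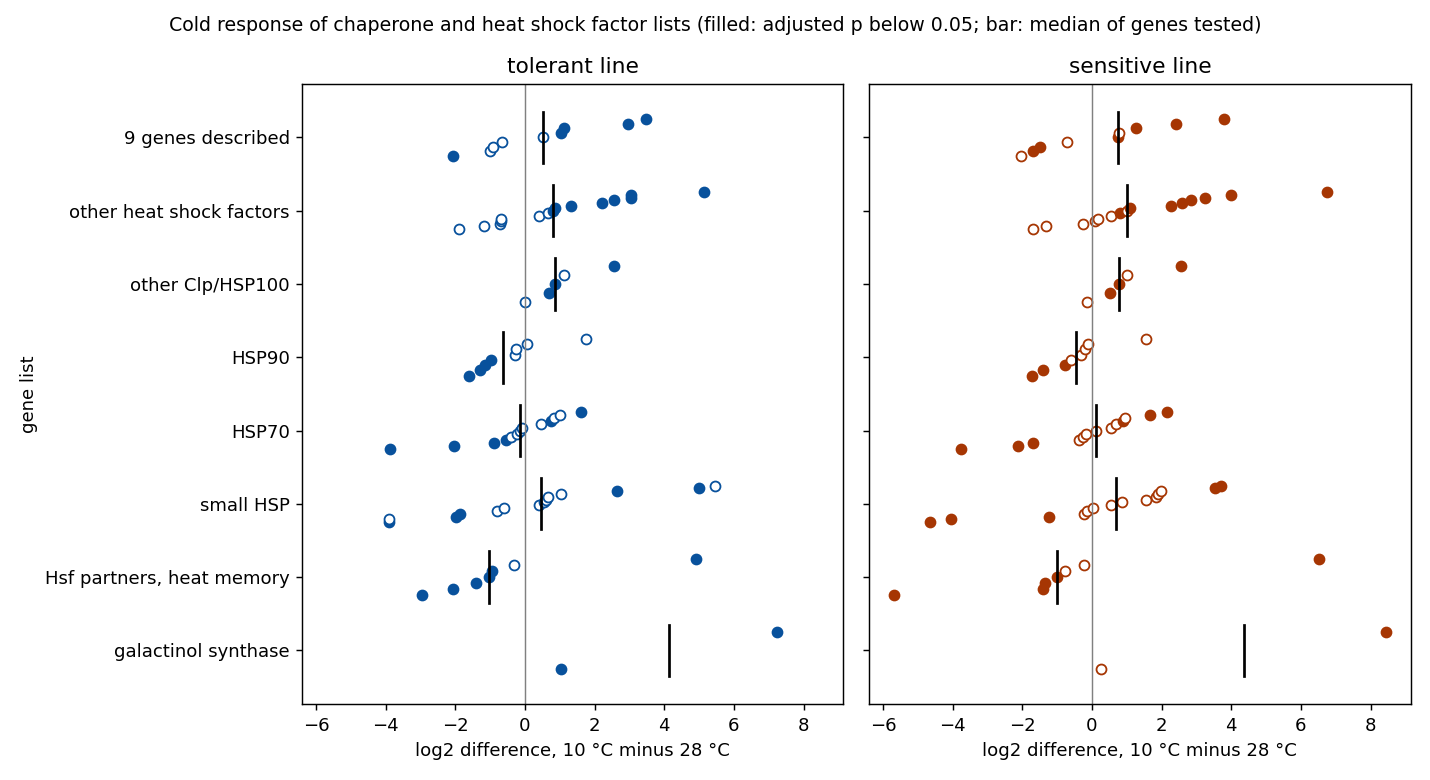
Log2 difference, 10 °C minus 28 °C, of every tested locus of each list in tolerant and sensitive roots, from the authors' deposited tables; filled points have an adjusted p below 0.05 and bars are list medians. Called Hsf and Clp/HSP100 loci outside the 9 genes lie to the right of 0 and called HSP90 loci to the left, in both lines.

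Between the lines, 3 list loci stood apart, chosen for mention after their values were seen. LOC_Os09g28354, an Hsf locus, stood at 44.4 and 110 normalised counts in tolerant and 234 and 256 in sensitive roots at 10 °C, with a log2 difference, tolerant minus sensitive, of −1.67 ± 0.51 (SE, adjusted p = 0.0392) in the authors' deposited table. It was not called by limma (adjusted p = 0.159) nor when p-values were adjusted over every gene with a p-value (adjusted p = 0.0599). LOC_Os03g16860, of the HSP70 list, was lower in tolerant roots at 10 °C by −2.29 ± 0.49 (SE, adjusted p = 0.000325) in the authors' deposited table, and its values per library were not recovered. LOC_Os01g08860, of the small heat shock protein list, stood at 2.02 and 8.56 in tolerant and 218 and 359 in sensitive roots at 10 °C, and at 6.39 and 0 in tolerant and 175 and 145 in sensitive roots at 28 °C. Its log2 differences, tolerant minus sensitive, were −5.82 ± 0.79 (SE) at 10 °C and −5.63 ± 0.81 (SE) at 28 °C in the authors' deposited table, while limma did not call them (adjusted p = 0.0722 and 0.116). Beside these values stand the shoot markers, of which 2 of 8 were also called lower in tolerant roots at 10 °C and 0 of 8 at 28 °C. Of all genes tested, 2.90% were called in either direction at 10 °C and 0.765% at 28 °C. The part of shoot tissue in these line differences was not tested.

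By likeness of pattern, the Euclidean distance between log2 levels over the 4 groups, each centred on its own mean, the nearest of the other genes with a mean of at least 20 were named for each gene; 20132 genes had such levels. Nearest to HsfA3 were LOC_Os08g42590 at a distance of 0.05 and LOC_Os05g05860 at 0.11. Nearest to HsfA4d were LOC_Os02g36570 at 0.06 and LOC_Os01g21160 at 0.07, and nearest to HsfB2c were LOC_Os12g10190 at 0.05 and LOC_Os11g20170 at 0.10. HSP101 lay nearest to LOC_Os01g10600 at 0.04 and LOC_Os07g08210 at 0.05, and HsfA1 to LOC_Os08g08200 at 0.02 and LOC_Os06g01980 at 0.03. The nearest to HsfA2d was LOC_Os08g38086 at 0.04, a locus of the HSP90 list, followed by LOC_Os05g27304 at 0.06. HsfA2c lay nearest to LOC_Os07g27430 at 0.07 and LOC_Os04g44840 at 0.08, and HsfB2b to LOC_Os03g03400 at 0.02 and LOC_Os08g36330 at 0.03. No other of these 16 loci was in a list used here. Each pattern holds 4 group levels and the search took in 20132 genes, so a small distance alone does not show shared regulation. For HsfB2b, called in no comparison, the standard errors of the cold changes were 0.78, far above its distances.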

How the data were processed

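RNA from roots was sequenced in 8 libraries from poly-A RNA, as single reads of 50 bp, per the labels' protocols. The authors deposited 4 comparison tables with the columns of a DESeq2 results table, per the file headers: the mean normalised signal over all libraries, the log2 fold change and its standard error, a score (the Wald statistic), and a p-value with its Benjamini-Hochberg adjusted value. The submitters' processing notes name Bowtie 0.12.7, while the deposited tables carry the name of another aligner, STAR; build, annotation, counter and strand setting were each not given in the sources used here.

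Genes were called at an adjusted p below 0.05 in the authors' table. Difference in cold response was tested by the difference of both log2 changes over the root of their summed squared errors (2-sided normal p, Benjamini-Hochberg over 26199 genes). Size factors came from genes seen as 1 read. Dispersion and group levels solve the 4 standard errors, and the whole reads kept are the single set that fits these group levels and gives the deposited mean to a relative tolerance of 1e-14. This step recovered 34856 IDs (97.3%); 979 stayed unsolved, 932 of them with a mean of at least 1000. The step was tested on simulated data. Median-of-ratios size factors from the recovered reads lay within 0.625% of those used. For values per library the design had named another count test; since these reads were recovered from normalised values, limma-voom (limma 3.58.1, R 4.3.3) on 22639 genes with a mean of at least 5 was run in its place, chosen after seeing the data. Intervals are 95%; those from reads cover counting error only.

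Members and lists were chosen with earlier results of these data known. Named by rule are all 9 genes, per list the called locus (mean at least 20) with the largest rise and the largest fall in each cold comparison, and the 2 nearest genes by pattern. Neighbours of HsfA2c and HsfA2d in ID order and some further list loci were named outside this rule. All 9 names matched a RefSeq entry (assembly ASM3414082v1) on the chromosome in the ID. Alternatives were a threshold of 0.01, a log2 difference of at least 1, adjustment over every gene or those above the median mean, a median shift to 0, limma, and leaving out each library. 1 HSP90 locus was not in the tables.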

Additional observations from a re-analysis of the deposited data

Results flagged for a closer look

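LOC_Os01g41710, of the shoot marker list, was flagged because the derived Wald test of the difference in cold response between the lines passed: −2.75 ± 0.64 on the log2 scale, tolerant minus sensitive (SE, adjusted p = 0.00942). It stood at 83.8 and 84.3 normalised counts in tolerant roots at 10 °C against 687 and 807 at 28 °C, and at 395 and 337 in sensitive roots at 10 °C against 699 and 272 at 28 °C. Limma did not call the difference (−2.87, adjusted p = 0.485). None of the 9 genes was flagged.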

How the results depend on the processing

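For the 9 genes, every alternative that kept all libraries (a threshold of 0.01, a log2 difference of at least 1, adjustment over all genes or those above the median mean, a median shift to 0, limma) left counts of called genes within 1.5 times. At the threshold of 0.01, 4 genes stayed called in tolerant and 5 in sensitive roots. Under the other adjustments, the median shift and limma, direction of called genes and every call were the same in 33 of 33 values per comparison. Leaving out 1 library in limma gave 3 to 5 called genes in tolerant roots and 1 to 6 in sensitive roots. In tolerant roots 8 of 64 and in sensitive roots 13 of 64 such values lost their call, 0 changed direction while called, and line differences stayed uncalled in all. A lone library left in a group is there assumed to vary like the others. Among list loci and the shoot marker named, 89 of 399 values lost their call, 1 gained one and 0 reversed; limma's counts of HSP90, HSP70 and Clp loci leave out called loci whose reads were not recovered, whereas for Hsf partners in tolerant roots limma called 3 loci in place of 6 with all reads recovered, and for galactinol synthases 1 in place of 2 in tolerant and 0 in place of 1 in sensitive roots; the cause was not tested. The lowest limma counts of called list loci without 1 library in tolerant roots were 2 of HSP90, 2 of HSP70 (without the shallower 10 °C or deeper 28 °C library), 2 small HSPs (without the shallower 28 °C library), 2 Hsf partners (without the shallower 10 °C or shallower 28 °C library) and 0 galactinol synthases (without the deeper 28 °C library). In sensitive roots they were 1 of HSP90 and 1 small HSP (both without the deeper 28 °C library), 3 of HSP70 and 0 galactinol synthases. No paired analysis was possible because the recovered libraries carry no replicate number. With 2 libraries per group, sparse genes such as HsfA2a and HsfB2b leave wide intervals.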
